A study of Mus musculus with 2 samples.

Results

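Sox13, Sox4, Maf, Blk and Cd163l1 are 5 of the 22032 genes in a table of single-cell UMI counts (unique molecular identifiers, which stand for captured RNA molecules) from mouse embryonic thymus. They were taken by gene symbol and described in 378 cell barcodes that carried Cd3d at a level (CPM, UMIs of a gene scaled to 1000000 UMIs) of 600 or more, here called Cd3d-high, out of 5412 barcodes kept from 6057. For comparison, 4 sets of barcodes under that Cd3d level were gated on at least 1 UMI of both genes of a pair. Icos+Rora barcodes (1459) carried genes known from group 2 innate lymphoid cells (ILC2), Xcl1+Nkg7 barcodes (1273) genes of NK cells and ILC1, Spi1+Bcl11a barcodes (1082) genes of early progenitors, and Cd3g+Myb barcodes (172) genes of thymocytes entering the T lineage. The libraries came from sorted DN1 cells, the labelled CD4- CD8- starting stage of thymocyte development, of 5x polychromILC mice at embryonic days E15.5 and E19.5. All groups share this strain, a line known for its set of reporter alleles for innate lymphoid genes, and no wild-type control entered these comparisons.

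The table joins 2 libraries, marked by a barcode suffix of 1 or 2 that was not tied to a stage in the sources used here. Each library was therefore described by its suffix. No stage had a second library, and no test between groups was made. Several ratios between groups are also given within each library. Cd3d-high barcodes numbered 41 with suffix 1 and 337 with suffix 2. Suffix 2 gave 89.2% of Cd3d-high, 79.0% of Icos+Rora, 33.9% of Xcl1+Nkg7, 65.3% of Spi1+Bcl11a and 38.4% of Cd3g+Myb barcodes. Pooled levels and ratios therefore also mix the libraries in unlike parts. The median depth of Cd3d-high barcodes was 13646 UMIs, against 12182 in Icos+Rora, 11012 in Xcl1+Nkg7, 32304.5 in Spi1+Bcl11a and 29451 in Cd3g+Myb barcodes. Levels of groups are CPM from their summed UMIs, with exact Poisson 95% intervals that cover counting error only. The DN1 label was checked against several surface genes: Cd8b1 had a UMI in 2.11% and Cd4 in 1.35% of all kept barcodes, but in 23.3% and 13.2% of Cd3d-high barcodes. Cd8a, Cd44 and Il2ra (CD25) were named after their values were seen. Cd8a was in 2.70% of all kept and 29.1% of Cd3d-high barcodes. Cd44 was in 53.9% and 37.3%, and Il2ra in 36.2% and 12.4%. Of 25 barcode sequences present under both suffixes, none belonged to a Cd3d-high barcode.

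Sox13 and Sox4 are HMG-box transcription factors, and both are known for roles in γδ T cell development in the mouse thymus. Maf (c-Maf) is a basic leucine zipper factor known to act in γδ T cells that make IL-17, and Blk is a SRC family kinase of B cells that is also used by such γδ T cells. Cd163l1 (Scart1) is a scavenger receptor with cysteine-rich (SRCR) domains, known as a surface marker of IL-17-type γδ T cells. γδ T cells form early in the fetal thymus, where progenitors pass from expression of Spi1 and Bcl11a to expression of T-lineage genes. T cell receptor chain genes were not analysed here, so γδ identity was not read from the receptor.

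In the GRCm38 annotation, all 5 are protein-coding genes. Sox13 lies on chromosome 1 from 133382303 to 133424377, Sox4 on chromosome 13 from 28948919 to 28953713, Maf on chromosome 8 from 115682942 to 115707794 and Blk on chromosome 14 from 63372836 to 63417037, all on the minus strand. Cd163l1 lies on chromosome 7 from 140218267 to 140231145 on the plus strand, and its SRCR relative 5830411N06Rik (Scart2) lies next to it, from 140247284 to 140300736. How the counting treated reads shared between these related genes was not checked here. Antisense genes overlap Sox4 (Gm26735) and Maf (Gm15655), and whether the counting used strand is not given in the sources used here. RefSeq promoter entries (GRCm38.p6) were matched for Sox13, Sox4 and Cd163l1. The stretches upstream of both the RefSeq and the GENCODE starts are shown because these promoters differ in CG content, with each CG pair in capitals and each read 5′ to 3′ on the gene's strand.
Sox13, chr1:133424378-133424462, minus strand: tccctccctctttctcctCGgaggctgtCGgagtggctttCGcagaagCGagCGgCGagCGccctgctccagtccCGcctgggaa
Sox4, chr13:28953714-28953949, minus strand: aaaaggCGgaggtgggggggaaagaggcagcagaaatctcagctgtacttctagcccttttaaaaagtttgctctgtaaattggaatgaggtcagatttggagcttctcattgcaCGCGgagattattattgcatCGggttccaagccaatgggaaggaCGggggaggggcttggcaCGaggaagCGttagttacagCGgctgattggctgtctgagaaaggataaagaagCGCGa
Cd163l1, chr7:140218017-140218266, plus strand: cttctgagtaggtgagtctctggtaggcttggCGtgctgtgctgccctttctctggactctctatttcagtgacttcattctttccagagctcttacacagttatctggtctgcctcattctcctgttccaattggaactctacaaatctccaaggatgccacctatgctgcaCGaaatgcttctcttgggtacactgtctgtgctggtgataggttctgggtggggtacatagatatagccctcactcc
Over the full 300-base entries, Sox13 held 40 CG pairs at 73.3% G+C, Sox4 12 at 52.0% and Cd163l1 2 at 50.7%, against medians of 7 pairs and 52.7% over all 32851 entries. On both strands, none of the 3 entries held AACAAT (a SOX core, in 10.7% of all entries), CTTTGAT (TCF/LEF, 3.73%), TGCTGA (a MAF half-site, 19.48%) or TGTGGT (RUNX, 16.8%). The E-box CANNTG occurred once in Sox4 and in 2 places in Cd163l1, and in 72.3% of all entries at least once. These counts describe letters in this window only.

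Cd3d-high barcodes held 5.46% of all UMIs of kept barcodes. They held 76.7% of the Blk UMIs (830 of 1082) and 37.8% of the Sox13 UMIs (468 of 1239), but 14.4% of Maf, 10.5% of Cd163l1 and 5.35% of Sox4 UMIs. Blk and Sox13 were thus concentrated there, while the share of Sox4 UMIs there was near that of all UMIs. Most Sox4 UMIs, 22700 of 31853, lay in Spi1+Bcl11a barcodes. A gene was counted as higher or lower where its pooled level differed by 2-fold or more. By this count, 3 members (Sox13, Sox4 and Blk) were higher in Cd3d-high than in Icos+Rora barcodes, where 7.51% of all genes were. Against Xcl1+Nkg7 barcodes 4 members (all but Cd163l1) were higher, beside 10.5% of all genes. Against Spi1+Bcl11a barcodes 4 members (all but Sox4) were higher, beside 12.8% of all genes, and the same 4 were higher than in Cd3g+Myb barcodes, beside 12.0%. None was 2-fold lower against any of the 4 gates, where 6.69%, 6.08%, 12.3% and 7.86% of all genes were, in the same order of gates. The members were chosen with earlier results of these data known, so these counts are a description and not a test.

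**Figure D1:**
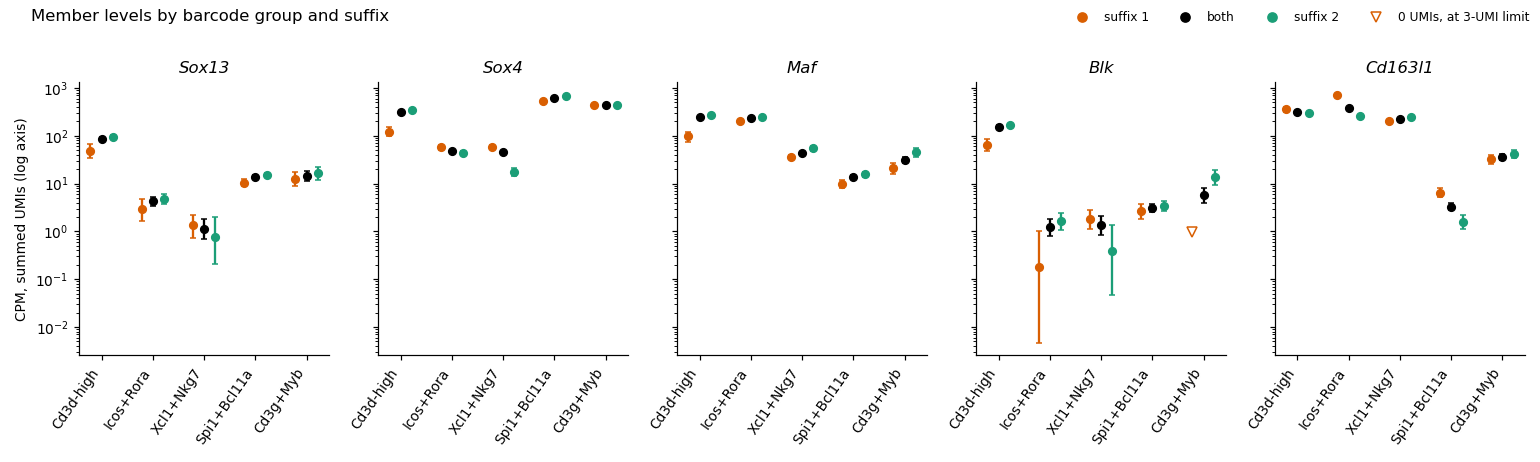
Level of each member (CPM from summed UMIs, log axis) in the 5 barcode groups, for suffix 1 (orange), suffix 2 (green) and both (black), with exact Poisson 95% intervals; an open triangle marks 0 UMIs, drawn at the limit of 3 UMIs. Sox13 and Blk stand highest in Cd3d-high barcodes, Sox4 in Spi1+Bcl11a barcodes, and Maf and Cd163l1 are lowest in Spi1+Bcl11a barcodes.

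Sox13, a SOXD factor known to mark γδ-lineage cells among early thymocytes, reached 86.5 CPM (78.9 to 94.8) in Cd3d-high barcodes. It stood at 14.3 in Cd3g+Myb, 13.6 in Spi1+Bcl11a, 4.30 in Icos+Rora and 1.15 in Xcl1+Nkg7 barcodes. Within Cd3d-high barcodes it was 48.9 CPM in suffix 1 and 92.1 in suffix 2, and no gate exceeded 16.4 CPM in either suffix. The share of all genes whose Cd3d-high levels stay apart from the gates in both suffixes was not computed. The pooled log2 ratio to Cd3g+Myb barcodes was 2.59 (2.24 to 2.96), the smallest of the 4, and that to Xcl1+Nkg7 barcodes was 6.23 (5.56 to 7.002). Within suffixes 1 and 2 the ratio to Cd3g+Myb barcodes was 1.94 and 2.49, both below the pooled value. The ratio to Xcl1+Nkg7 barcodes was 5.19 and 6.92. Cd3g+Myb and Spi1+Bcl11a, neighbours in the order of levels, could not be separated at this depth: their log2 ratio was 0.08 (-0.28 to 0.43).

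Sox4 followed another order. Its level was 622 CPM in Spi1+Bcl11a barcodes, 433 in Cd3g+Myb, 315 (300.3 to 330.4) in Cd3d-high, 47.1 in Icos+Rora and 45.2 in Xcl1+Nkg7 barcodes. Pooled over suffixes, the last pair did not differ beyond counting error (log2 ratio of Icos+Rora over Xcl1+Nkg7 0.06, -0.08 to 0.20). Within suffix 1 this ratio was -0.05 (-0.25 to 0.15). Within suffix 2 Icos+Rora barcodes were higher, with a ratio of 1.31 (0.99 to 1.64). Cd3d-high barcodes had 122 CPM of Sox4 in suffix 1 and 344 in suffix 2. Both values lay above those of Icos+Rora (57.1 and 43.5) and Xcl1+Nkg7 barcodes (59.1 and 17.5), and below those of Spi1+Bcl11a (525 and 674) and Cd3g+Myb barcodes (433 and 433). The log2 ratio to Spi1+Bcl11a barcodes was -0.98 (-1.05 to -0.91), just short of 2-fold. It was -2.10 with suffix 1 and -0.97 with suffix 2, and 7 of the 18 alternative settings tried, suffix 1 alone among them, put Sox4 past the 2-fold line. To Cd3g+Myb barcodes the ratio was -0.46 in all, and -1.82 with suffix 1 alone. Pooled and in suffix 2, Sox4 was thus high in both progenitor gates and in Cd3d-high barcodes, and low in both innate gates. In suffix 1, Cd3d-high barcodes (122 CPM) stood nearer the innate gates than the progenitor gates.

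Maf was shared with the Icos+Rora gate. Its level was 246 CPM (233 to 259) in Cd3d-high and 239 in Icos+Rora barcodes, a log2 ratio of 0.04 (-0.05 to 0.13). It was 42.8 in Xcl1+Nkg7, 31.3 in Cd3g+Myb and 13.6 in Spi1+Bcl11a barcodes. The suffixes went apart within Cd3d-high barcodes, where Maf was 96.4 CPM in suffix 1 and 268 in suffix 2. In Icos+Rora barcodes it was 206 and 251. The ratio of these groups was thus -1.10 (-1.47 to -0.74) in suffix 1 and 0.09 in suffix 2, with an interval from just under 0 to 0.19. Over Spi1+Bcl11a barcodes, the log2 ratio was 4.18 in all, with 3.28 and 4.11 in suffixes 1 and 2.

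Blk had the narrowest distribution of the 5. It stood at 153 CPM (143 to 164) in Cd3d-high barcodes, 5.77 in Cd3g+Myb, 3.12 in Spi1+Bcl11a, 1.34 in Xcl1+Nkg7 and 1.26 in Icos+Rora barcodes. Cd3d-high barcodes had 64.8 CPM in suffix 1 and 167 in suffix 2. The highest level of Blk elsewhere was 13.4 CPM, in Cd3g+Myb barcodes of suffix 2. In suffix 1 those barcodes had 0 Blk UMIs. With a limit of 3 UMIs standing in for that group, Cd3d-high barcodes were 66.0-fold higher there. The conditional exact interval of the log2 ratio, which also covers the counting error of Cd3d-high barcodes, began lower, at 5.69. The log2 ratio to Icos+Rora barcodes was 6.93 (6.37 to 7.56), with 6.67 in suffix 2. In suffix 1 the Icos+Rora barcodes held 1 Blk UMI, and the ratio of 8.46 had an interval from 5.91 to 13.80.

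Cd163l1 was not particular to Cd3d-high barcodes. Its level was 376 CPM in Icos+Rora, 309 (295 to 324) in Cd3d-high, 220 in Xcl1+Nkg7, 36.1 in Cd3g+Myb and 3.31 in Spi1+Bcl11a barcodes. Cd3d-high barcodes had 358 CPM in suffix 1 and 302 in suffix 2. Icos+Rora barcodes had 694 and 263, so the order of these groups turned with the suffix: the log2 ratio was -0.95 (-1.14 to -0.77) in suffix 1 and 0.20 (0.11 to 0.29) in suffix 2. Over Spi1+Bcl11a barcodes Cd163l1 was 93.3-fold higher, a log2 ratio of 6.54 (6.28 to 6.82), with 5.80 in suffix 1 and 7.55 in suffix 2. Its main contrast was between progenitors and all 3 lymphoid groups with high levels, Cd3d-high barcodes among them.

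Shares of barcodes with a UMI were compared after thinning each barcode to 5000 UMIs, at which 1 UMI stands for 200 CPM. This left 331 Cd3d-high barcodes, with 47 shallower ones left out. A Maf UMI was found in 54.7%, Sox4 in 49.5%, Cd163l1 in 43.5%, Blk in 37.8% and Sox13 in 28.1% of them. Without thinning the shares were 60.1%, 62.7%, 50.8%, 40.2% and 40.5%. Free RNA can give UMIs in barcodes of cells that lack a gene, so the lowest shares elsewhere were set beside these. Blk had a UMI in 0.208% of 1439 thinned Icos+Rora and 0.560% of 1249 thinned Xcl1+Nkg7 barcodes, and Sox13 in 1.39% and 0.641%. In 1079 thinned Spi1+Bcl11a barcodes, Cd163l1 was in 1.02% and Maf in 5.38%. The lowest share of Sox4 was 15.8%, in Icos+Rora barcodes, a higher share than the lowest of any other member. UMIs were unevenly spread even within Cd3d-high barcodes. The 38 barcodes with most Sox13 held 54.9% of its UMIs. The matching values were 51.7% for Cd163l1, 46.4% for Blk, 43.8% for Sox4 and 36.3% for Maf. The highest single barcode had 22 UMIs of Sox13, 18 of Blk, 26 of Maf, 43 of Sox4 and 34 of Cd163l1.

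The members were next read against each other within the 331 thinned Cd3d-high barcodes. Blk was found in 74.2% (95% exact binomial interval in the plot of co-detection) of the 93 barcodes with Sox13 and in 23.5% of the 238 without. Maf was found in 87.1% and 42.0%, and Sox4 in 78.5% and 38.2% of the same barcodes. Barcodes with Blk had Maf in 88.0% of 125, against 34.5% of the 206 without Blk. Sox13, Sox4, Maf and Blk were thus found together. With overlapping intervals for all but Sox4, Cd163l1 went different ways with different members. It was in 37.6% of Sox13 barcodes and 45.8% of the rest, and less frequent with Sox4 (31.7% of 164) than without (55.1% of 167). It was in 51.2% of barcodes with Blk and 38.8% of those without, and in 46.4% with Maf and 40.0% without. In suffix 2 alone, Blk was in 73.0% of 89 barcodes with Sox13 and 26.6% of 203 without. Suffix 1 had 4 Sox13 barcodes, of which 100% had Blk, against 5.71% of 35. Those 4 also all had Cd163l1 (interval 39.8% to 100%), against 42.9% of the 35 (26.3% to 60.6%). In suffix 2 Cd163l1 was in 34.8% of barcodes with Sox13 and 46.3% without. With and without Sox4 it was in 58.3% of 12 and 44.4% of 27 in suffix 1. In suffix 2 these shares were 29.6% of 152 and 57.1% of 140. The intervals of suffix 1 overlapped for both members, so its few barcodes cannot settle a direction of Cd163l1. Barcodes with at least 3 of the 5 members made up 39.3% of Cd3d-high barcodes (42.8% in suffix 2, 12.8% in suffix 1). They were 5.63% of Icos+Rora, 1.44% of Xcl1+Nkg7, 0.741% of Spi1+Bcl11a and 2.40% of Cd3g+Myb barcodes. All 5 members were found in 23 Cd3d-high barcodes, while 42 had none of them. In each of the 4 gates 0 barcodes had all 5, which allows a share of up to 0.208% in Icos+Rora, 0.240% in Xcl1+Nkg7, 0.278% in Spi1+Bcl11a and 1.80% in Cd3g+Myb barcodes.

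**Figure D2:**
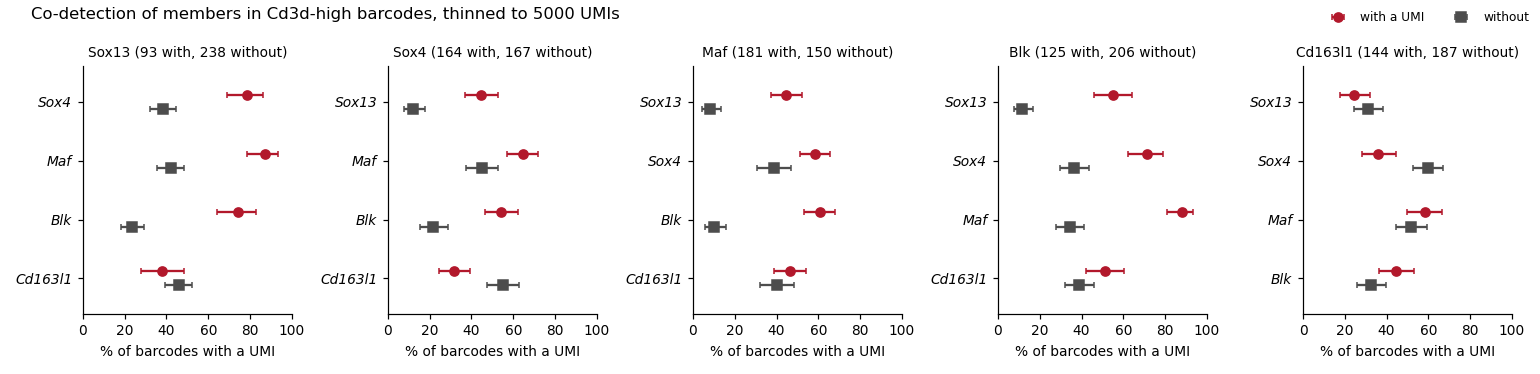
Percent of the 331 thinned Cd3d-high barcodes with a UMI of each other member, in barcodes with (red circles) and without (grey squares) a UMI of the member named above each panel; bars are exact binomial 95% intervals. Each of Sox13, Sox4, Maf and Blk is more frequent in barcodes with any other of these 4, and Cd163l1 is less frequent in barcodes with Sox4.

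Cd3d-high barcodes were not uniform, and the members divided among 4 sets of them. These sets were drawn after the members' values were seen, from gating genes and Cd8b1. The first held 78 barcodes with 2 or more UMIs of Cd8b1, a CD8 chain of αβ thymocytes, all with suffix 2 and with a median of 4944.5 UMIs. Of the barcodes with fewer Cd8b1 UMIs, 58 held Icos and Rora, 76 others held Xcl1 and Nkg7, and 166 remained. Near the Cd8b1 line, 7 barcodes had exactly 2 UMIs and 10 had exactly 1.

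In the Cd8b1 set, Sox4 was the member that stayed, at 458 CPM (410 to 510). Sox13 was 9.63 CPM there, Blk 5.50, and Maf and Cd163l1 30.3 each. The same set had Rag1, which cuts receptor gene segments, at 422 CPM, Cd8a at 820 and Arpp21, a gene of CD4+ CD8+ thymocytes, at 761. In the Xcl1 and Nkg7 set, all 4 factors and kinases were low, with Sox13 at 26.4 CPM, Blk at 19.1, Maf at 65.5 and Sox4 at 88.3, while Cd163l1 was 315 (111 in suffix 1 and 411 in suffix 2). Cd3e, a CD3 chain, was 110 CPM in this set and 298 to 425 in the other sets. The Icos and Rora set had 85.2 CPM of Sox13, 193 of Blk, 361 of Maf, 267 of Sox4 and 461 of Cd163l1. Blk in these 58 barcodes compares with 1.26 CPM in Icos+Rora barcodes under the Cd3d line. The remaining 166 barcodes had the highest Sox13 (134 CPM, 120 to 149) and Blk (237, 218 to 256), with Maf at 339, Sox4 at 389 and Cd163l1 at 327. They also held 83 of the 88 UMIs of Il17a, which encodes the cytokine IL-17A, at 32.0 CPM and in 9.04% of barcodes.

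**Figure D3:**
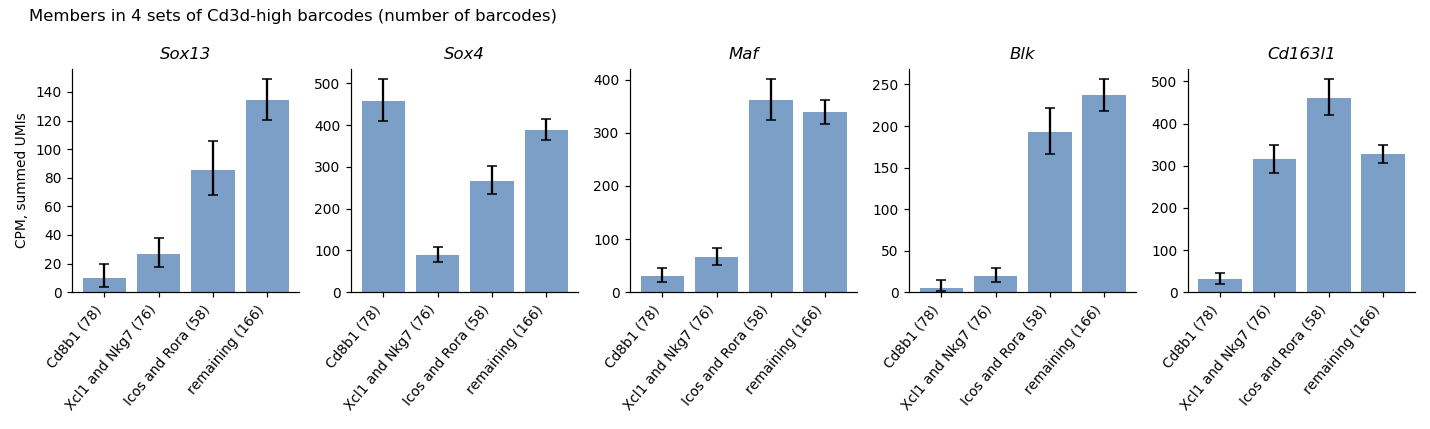
Level of each member (CPM from summed UMIs, linear axis from 0) in 4 sets of Cd3d-high barcodes, with the number of barcodes in parentheses and exact Poisson 95% intervals. Sox13 and Blk are high in the Icos and Rora set and the remaining set, Sox4 also in the Cd8b1 set, and pooled Cd163l1 in all but the Cd8b1 set.

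The mix of these sets differed between suffixes. Suffix 1 held 0 of the 78 Cd8b1 barcodes, 21 of the 76 with Xcl1 and Nkg7, 6 of the 58 with Icos and Rora and 14 of the 166 remaining. Within the remaining set, Sox13 was 111 CPM in suffix 1 and 136 in suffix 2, closer than the 48.9 and 92.1 over all Cd3d-high barcodes. Blk was 144 and 245, Maf 167 and 354, Sox4 255 and 402, and Cd163l1 686 and 295 in the same barcodes. In the Xcl1 and Nkg7 set, suffix 1 had 0 UMIs of Sox13 and of Blk over 21 barcodes, which allows up to 8.54 CPM. Suffix 2 had 38.8 and 28.1 CPM there. The part of this mix in the suffix difference was not tested.

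Co-detection was also read without the Cd8b1 barcodes, although thinning had already left out 40 of these 78. With them left out, Blk was in 75.6% of 90 Sox13 barcodes and 27.6% of 203 others. Sox4 was in 77.8% and 30.5%, and Cd163l1 in 38.9% and 51.7% of the same barcodes. The Xcl1 and Nkg7 set stayed in. Without thinning, Sox13 had a UMI in 5.26%, Blk in 6.58%, Sox4 in 22.4% and Maf in 39.5% of its barcodes. The part of the mix of sets in co-detection was not tested.

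Members were also followed along the Cd3d level of the barcode, over 5 ranges of Cd3d. Blk went from 1.87 CPM in 3889 barcodes with no Cd3d UMI to 2.87 under 300 CPM of Cd3d. It was 24.6 from 300 to 600, 113 from 600 to 1200 and 234 in the 161 barcodes at 1200 or more. Sox13 was 8.24, 6.65, 20.6, 62.3 and 135 CPM over the same ranges. Maf was 87.2, 66.5, 138, 205 and 328. Pooled over suffixes, each of these 3 genes was thus lowest or near lowest under 300 CPM of Cd3d and highest at the top. Sox4 made a trough, with 359 CPM in barcodes with no Cd3d UMI, 216 and 123 in the next ranges, then 206 and 535. Cd163l1 peaked at 443 CPM from 300 to 600, with 121 and 227 below that range and 301 and 325 above it. These shapes were those of suffix 2 and of the pool. In suffix 1, Cd163l1 was 162, 243, 383, 336 and 494 CPM over the 5 ranges, highest at the top in 9 barcodes, and Sox4 was lowest from 600 to 1200, at 85.6 CPM against 136 from 300 to 600. In suffix 1 the 300 to 600 range held 1 Blk UMI in 69 barcodes (0.833 CPM), against 46.2 CPM in 82 barcodes of suffix 2. Just under the 600 CPM line, 34 barcodes from 500 to 600 had 30.4 CPM of Sox13 and 60.8 of Blk, and the 44 barcodes from 600 to 700 had 20.2 and 80.8. The counting intervals of the 2 ranges overlapped for both genes, so these few barcodes show no step in them. Sox4 was 99.2 CPM (76.1 to 127) under the line and 203 (171 to 240) above it. By suffix it was 107 and 19.7 CPM in suffix 1, and 96.6 and 279 in suffix 2.

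**Figure D4:**
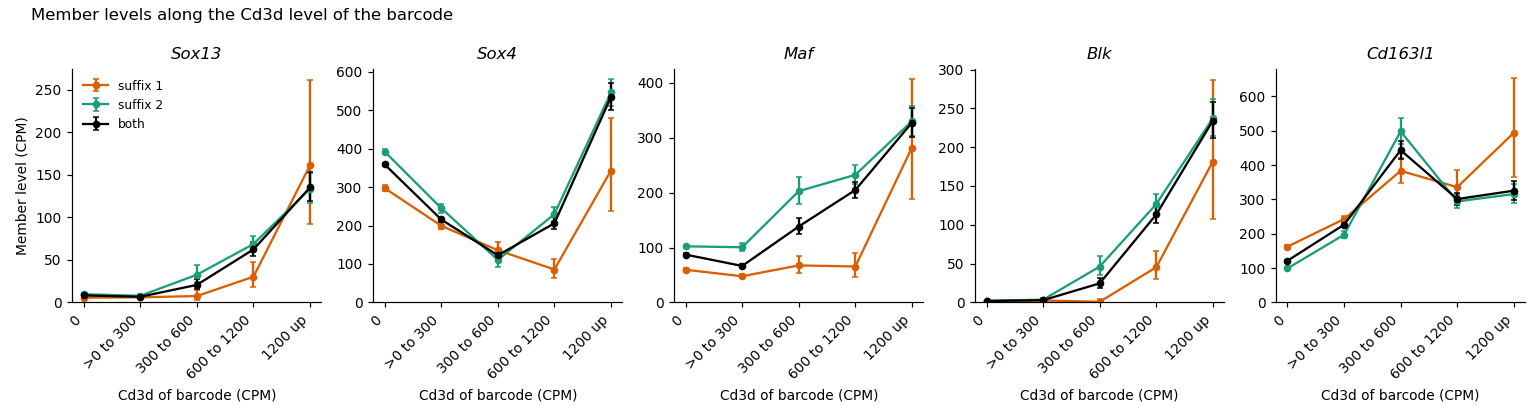
Level of each member (CPM from summed UMIs) in barcodes grouped by their Cd3d level (CPM), for suffix 1 (orange), suffix 2 (green) and both (black), with exact Poisson 95% intervals. Sox13, Maf and Blk are highest in the top range, Sox4 has its lowest pooled value from 300 to 600, and pooled Cd163l1 peaks there.

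Each member was set beside its family. Of all genes, 7.51% were 2-fold higher and 6.69% lower than in Icos+Rora barcodes. Higher by 2-fold were 10.5% against Xcl1+Nkg7, 12.8% against Spi1+Bcl11a and 12.0% against Cd3g+Myb barcodes. Of 15 SOX genes in the list, 4 had enough UMIs to compare in each of the 4 contrasts: Sox4, Sox12, Sox5 and Sox13. All 4 were at least 2-fold higher in Cd3d-high than in Icos+Rora and Xcl1+Nkg7 barcodes, and Sox5 and Sox13 also over Spi1+Bcl11a and Cd3g+Myb barcodes. Sox5, a SOXD factor like Sox13, was 13.7 CPM in Cd3d-high barcodes and 0.794 to 1.68 CPM in the gates. In a list of MAF genes and partners of small MAF proteins, 2 of 7 measured genes were higher than in Icos+Rora barcodes. Neither was a MAF gene. One was Bach1, a partner of small MAF proteins, with a log2 ratio of 2.42, and the other was Bach2 at 1.74, named after its value was seen. Mafg was at -0.09 and Nfe2l2 at -0.35. Among SRC family kinases and Csk, 3 of 8 were higher and 2 lower than in Icos+Rora barcodes. Lck, the main SRC kinase of T cells, had a log2 ratio of 2.07 there and 0.13 over Cd3g+Myb barcodes, where Blk had 4.73. In the SRCR family 4 of 10 genes were measured: Cd163l1, 5830411N06Rik, Cd5 and Cd6. 5830411N06Rik was 80.4 CPM in Cd3d-high and 15.51 in Icos+Rora barcodes, a log2 ratio of 2.38, unlike its neighbour Cd163l1 at -0.28. Cd5, an inhibitory receptor set by receptor signal strength, was 44.6 and 0.870 CPM in the same groups. Suffix 1 Cd3d-high barcodes had 5.76 CPM of 5830411N06Rik and suffix 2 had 91.5, the reverse order of Cd163l1.

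A list of 20 genes of the IL-17 γδ programme, without the 5 members, did not follow Sox13 and Blk as a whole. Over Icos+Rora barcodes, 7 were higher and 7 lower, with a median log2 ratio of -0.84, against 0.07 over all genes. Over Spi1+Bcl11a barcodes 13 were higher and 2 lower (median 3.17, against -0.03), over Cd3g+Myb barcodes 13 and 2 (2.19, against 0.01) and over Xcl1+Nkg7 barcodes 11 and 0 (1.64, against 0.17). Etv5, an ETS factor of such cells, stood at 45.5 CPM in Cd3d-high and 0.918 in Icos+Rora barcodes. Ccr6, a chemokine receptor, went the other way, with 12.6 and 94.1 CPM, and so did Il7r, the IL-7 receptor chain, with 154 and 575. Ccr2 was 150 and 185. Il17a, named after its value was seen, was 16.3 CPM in Cd3d-high barcodes, 1.44 in suffix 1 and 18.5 in suffix 2, and had a UMI in 5.03% of barcodes.

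A second list held 19 measured genes of γδ receptor signalling and the interferon fate. Here 12 were higher and 1 lower than in Icos+Rora barcodes (median 1.62), 15 and 0 against Spi1+Bcl11a (3.66), and 18 and 0 against Cd3g+Myb (2.82). Against Xcl1+Nkg7 barcodes 9 were higher and 4 lower (0.59). Of all genes, 7.51% were higher and 6.69% lower than in Icos+Rora barcodes, and 10.5% and 6.08% against Xcl1+Nkg7. Against Spi1+Bcl11a these shares were 12.8% and 12.3%, and against Cd3g+Myb 12.0% and 7.86%. Id3, an inhibitor of E proteins induced by receptor signals, was 219 CPM in Cd3d-high barcodes, 41.5 in Icos+Rora and 0.821 in Spi1+Bcl11a barcodes. Cd27, a costimulatory receptor, was 209 CPM against 68.1 and 138. Cd69 was the lower gene, at 99.1 CPM against 228 in Icos+Rora barcodes. The 4 that were lower than in Xcl1+Nkg7 barcodes were Tbx21, Eomes, Ifng and Il2rb, named after their values were seen. Among 17 T-lineage regulators, 8 were higher and 0 lower than in Icos+Rora barcodes, and 6 higher and 3 lower than in Cd3g+Myb barcodes. The 3 lower were Runx1, Notch1 and Myb, the first 2 named after their values were seen; Myb defines that gate, so its direction comes from the gating. Tcf7 (TCF-1) was 377 CPM in Cd3d-high and 333 in Cd3g+Myb barcodes, and Bcl11b was 275 and 177. Among 11 CD3 and proximal signalling genes, 8 were higher and 0 lower than in Cd3g+Myb barcodes. The list holds Cd247, the zeta chain, at 319 and 27.2 CPM, and the gating gene Cd3g, which was not among the 8. A list of αβ thymocyte genes had higher medians than both γδ lists over each of the 4 gates. Of 11 in the list, 11 were higher than in Icos+Rora barcodes (median log2 ratio 6.76), 9 higher and 0 lower than in Xcl1+Nkg7 (4.07), 10 and 0 against Spi1+Bcl11a (5.10) and 7 and 1 against Cd3g+Myb barcodes (3.26). The lower gene was Rag2, named after its value was seen, at 9.06 and 29.1 CPM. Cd8b1 was 180 CPM in Cd3d-high barcodes, with 1.44 in suffix 1 and 206 in suffix 2, and Cd2, an adhesion receptor of T and NK cells, was 125, with 94.98 and 130. The 78 barcodes of the Cd8b1 set, all with suffix 2, held 962 of the 972 Cd8b1 UMIs, by the way they were drawn. They also held 307 of 348 Rag1 and 553 of 701 Arpp21 UMIs. In the other 300 Cd3d-high barcodes Rag1 was 8.76 and Arpp21 31.6 CPM. Medians of the list without the Cd8b1 set are not given here.

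**Figure D5:**
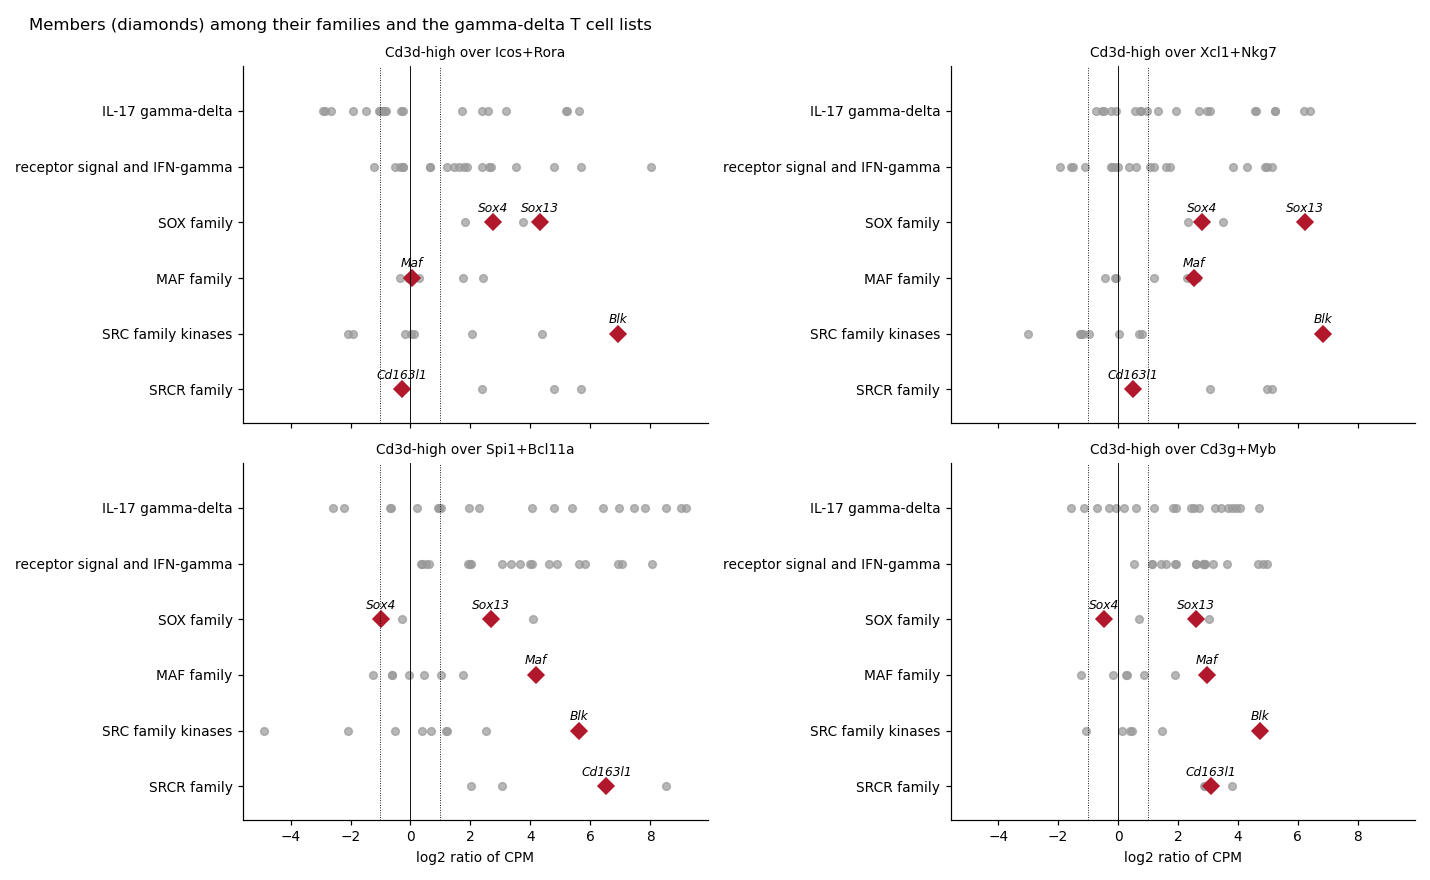
Log2 ratio of CPM, Cd3d-high over each gate (one panel per gate), for members (red diamonds) and the other measured genes of each list (grey circles); dotted lines mark 2-fold. Blk stands farthest right in its family in all 4 panels, and Cd163l1 lies left of the other SRCR genes over Icos+Rora and Xcl1+Nkg7.

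The genes most like each member were ranked by Pearson's r among 7777 genes found in at least 10% of Cd3d-high barcodes. This is a description with no test, and the points share libraries and depth. Across 10 points (5 groups in 2 suffixes, on log2 of CPM plus 10), Sox13 was most like Cd5 (r 0.971), Trib1, Cd6, Heg1 and Blk (0.932). Blk was most like Cd6 (0.986), Etv5, Ilvbl, Iqch and Nsg2. Cd6 is a receptor related to Cd5 and Trib1 a pseudokinase. Sox4 was most like Cd1d1 (0.993), Znrd1, Frat2, Xrcc6 and Hnrnpa1. Maf was most like Myo6 (0.978), Camk4, Igtp, Rasgrp1 and Mturn, and among the genes most like Cd163l1 were 1110008P14Rik (0.971), Nfkbia, Rftn1 and Ltb.

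Across the 331 thinned Cd3d-high barcodes, r was lower. Ccr9, a chemokine receptor that draws cells to thymus and gut, led for Sox13 (0.506), Sox4 (0.546) and Maf (0.534). Sox13 was next to Gzma, Cd247, Blk (0.415) and Cpa3, and Sox4 to Rgs10, Lztfl1, Ppp1r14b and Gzma. Maf had Blk second (0.488), then Ifngr1, Camk2d and Sox13. Blk was led by Cd247 (0.538), then Crip1, Maf, Camk2d and Ckb. Cd163l1 had a separate set, S100a4 (0.498), S100a6, Serpinb1a, Cxcr6 and Il18r1, and its r with Sox13 was -0.11. Ccr9 was 621 CPM in the remaining 166 barcodes and 90.1 in the Xcl1 and Nkg7 set.

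Markers of other cells were read in Cd3d-high barcodes. Myeloid markers summed to 2.40 CPM with 10 of 13 at 0, among them Csf1r and Adgre1. Among B lineage markers, Pax5, Ms4a1 and Vpreb3 were at 0 and Cd79b was at 51.8 CPM, beside Blk at 153 CPM. NK and ILC1 markers summed to 7638 CPM in suffix 1 and 3877 in suffix 2, led by Gzma and Gzmc, and all 14 were detected; their part in the lower Sox13, Maf and Blk of suffix 1 was not tested. With every barcode holding Xcl1 and Nkg7 left out, the log2 ratio of Sox13 over Icos+Rora barcodes was 4.60. Thymic epithelial markers summed to 78.2 CPM, of which Epcam gave 53.1, while Foxn1, Psmb11 and Krt5 were at 0. αβ thymocyte markers summed to 302 CPM in suffix 1 and 1054 in suffix 2.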

How the data were processed

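Single-cell 3′ libraries (10x Chromium v3) were made from sorted DN1 cells. Per the labels' protocols the sorted cells were lysed to nuclei, so whether the counts are from cells or nuclei is not settled here. Per the submitters' processing notes, Cell Ranger 3.0.2 and STAR were used with GRCm38. The authors deposited raw UMI counts, 22032 genes by 6057 barcodes in 1 table, whose column names mark the library by suffix. The table was treated as 1 sample, since no source used here ties a suffix to a stage.

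Barcodes with at least 500 genes and at most 10% mitochondrial UMIs were kept, and doublets called per suffix with Scrublet (scanpy 1.11.5) were removed (0.466% in suffix 1, 2.76% in suffix 2). This left 2137 and 3275 barcodes with medians of 14841 and 13688 UMIs. Barcodes in 2 or more of the first 3 gates (348) were left out, Cd3g+Myb barcodes were in none of these gates, and 700 barcodes were in no gate. A gene was compared where it had at least 20 UMIs in both groups together. Ratios carry conditional exact intervals and shares exact Clopper-Pearson ones, and ratios and thinning were tested on simulated data. Where a group had 0 UMIs, 3 UMIs stood in as the limit. No count model was used, because each stage has 1 library, and cells are not replicates.

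The members, lists and markers were chosen with earlier results of these data known. Named genes are the members, the gating genes, the 3 most abundant of each list with its highest and lowest ratio over Icos+Rora, the leading markers of other cells and the 5 genes most like each member. Others are said to be chosen after their values were seen, as were the 4 sets of Cd3d-high barcodes and the 3 alternatives that leave barcodes out of them. Some items that these rules would name are not reported here.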

Additional observations from a re-analysis of the deposited data

Results flagged for a closer look

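For 2 members the ratio to Icos+Rora barcodes had opposite signs in the 2 suffixes; the difference itself was not tested, since each suffix is 1 library. The log2 ratio of Maf was -1.10 in suffix 1 and 0.093 in suffix 2. That of Cd163l1 was -0.95 in suffix 1 and 0.20 in suffix 2. The 2 cases differ in which group moved: Maf differed between suffixes mainly in Cd3d-high barcodes (96.4 and 268 CPM), and Cd163l1 mainly in Icos+Rora barcodes (694 and 263 CPM).

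Members also had UMIs in barcodes outside the 5 groups. The 700 kept barcodes in no gate had 5.47 CPM of Sox13, 195 of Sox4, 146 of Maf, 4.45 of Blk and 184 of Cd163l1. The 348 left out for being in 2 or more of the first 3 gates had 6.56 CPM of Sox13, 256 of Sox4, 60.3 of Maf, 3.35 of Blk and 170 of Cd163l1. The 645 barcodes removed by the filters or as doublets had 9.83 CPM of Sox13, 411 of Sox4, 114 of Maf, 10.8 of Blk and 235 of Cd163l1.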

How the results depend on the processing

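The 20 ratios of members (5 genes, 4 gates) were recomputed under 18 alternatives, 3 of them chosen after seeing the data. Of the 360 values, 237 lay inside the 95% interval of the reported ratio and 123 outside it, and none of a ratio past 2-fold changed sign. The number of members past 2-fold stayed within 1 of the reported number in every alternative. The differences came from Sox4 over Spi1+Bcl11a barcodes, which ranged from -2.10 (suffix 1) to -0.22 (Cd3d at 1200 CPM), from Sox4 over Cd3g+Myb barcodes (-1.82 in suffix 1, 0.37 with Cd3d at 1200 CPM) and from Maf over Icos+Rora barcodes (-1.10 in suffix 1). Blk over Cd3g+Myb barcodes ranged from 2.87 to 6.77. With no minimum of UMIs per gene, the share of all genes past 2-fold was 26.0% for 14.2% over Icos+Rora, 27.4% for 16.6% over Xcl1+Nkg7, 38.3% for 25.1% over Spi1+Bcl11a and 29.1% for 19.9% over Cd3g+Myb, by construction from genes with few UMIs. Of the genes past 2-fold over Icos+Rora barcodes, 52.9% were higher, and 34.6% in suffix 1.

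Shares of Cd3d-high barcodes with a UMI moved with depth. For Sox13, Sox4, Maf, Blk and Cd163l1 in this order, thinning to 2500 UMIs gave 16.9%, 38.4%, 36.8%, 22.6% and 31.9%, and thinning to 10000 UMIs gave 40.8%, 56.9%, 66.0%, 48.1% and 53.4%. Without thinning, Sox13 was in 40.5%, Sox4 in 62.7% and Cd163l1 in 50.8%. In suffix 1 alone (39 barcodes) Sox13 was in 10.3%, Sox4 in 30.8%, Maf in 33.3% and Blk in 15.4%. With Cd3d at 300 CPM the shares of Sox13, Sox4 and Blk were 20.9%, 41.2% and 27.2%. With Cd3d at 1200 CPM all 5 were 43.8%, 62.3%, 62.3%, 52.3% and 37.7%. The cause was not tested.

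The groups were not tested as pairs within the 2 libraries; each ratio was recomputed with suffix 1 or suffix 2 left out, and those that crossed 2-fold are given above. Cd3d-high status rests on few UMIs in some barcodes: Cd3d UMIs ran from 1 to 52 with a median of 15, and 7 barcodes had under 3. Thinning left out 40 of the 78 Cd8b1 barcodes.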
